A study of Homo sapiens with 6 samples.

Results

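The transcripts of 10 genes of the JNK and p38 kinase cascade were measured by RNA-seq in HEK293T cells. The genes were taken by name from the symbols of the merged read-count table, which lists 23047, and all 10 were found there. All 10 also had the minimum of 10 reads summed over the 6 libraries, the filter that left 23617 genes to test. HEK293T is a human embryonic kidney line that carries the SV40 large T antigen. The lines were stable lines made with lentiviral pLKO.1 vectors and selected in neomycin, and none was treated further. In the sh-control group (n = 3) the vector expressed a nonspecific hairpin, and in the sh-*RREB1* group (n = 3) a hairpin against *RREB1*, a zinc-finger transcription factor. The sources used here do not say whether the 3 libraries of a group came from separate cultures, so p-values measure the spread between libraries, which may be technical. Whether a change in bulk RNA came from fewer cells or from less RNA per cell cannot be told apart.

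The JNK and p38 kinases are the stress-activated branches of the MAP kinase family. They respond to cytokines, osmotic shock, ultraviolet light and other stresses. A MAP3K phosphorylates a MAP2K, which then phosphorylates a threonine and a tyrosine in the activation loop of the MAP kinase. *MAP2K3* (MKK3) and *MAP2K6* (MKK6) activate p38, *MAP2K7* (MKK7) activates JNK, and *MAP2K4* (MKK4) acts mainly on JNK and also on p38. *MAPK8* and *MAPK9* encode JNK1 and JNK2, and *MAPK14* and *MAPK11* encode p38 alpha and p38 beta. *MAPK8IP1* encodes the scaffold JIP1, which holds the kinases of the JNK branch together. *MKNK2* encodes MNK2, a kinase that is activated by p38 and ERK and phosphorylates the translation factor eIF4E. RNA-seq measures the transcripts of these genes and not the phosphorylation of the proteins.

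Reads on genes numbered from 12257054 to 33044061 per library. In sh-*RREB1* replicate 3, 52.1% of the aligned reads lay at several positions, compared to 3.66% to 7.63% in the other libraries. The unit of level is CPM, which divides a gene's reads by the TMM-scaled size of the library (scaled to 1e+06 reads). *RREB1* itself ranged from 25.1 to 27.1 CPM with the control hairpin. The range was 23.1 to 24.6 CPM under the sh-*RREB1* label. This is a log2 fold change of −0.14 (SE 0.13, edgeR adjusted p = 0.489), although the groups did not overlap. With a trend on GC content and exonic length removed it was −0.36 (edgeR adjusted p = 0.0539). The study reported reduced *RREB1* mRNA, scaled to *ACTB*, and reduced protein in its knockdown cells. In these libraries the hairpin's target was not clearly reduced, and the libraries are called by their labels. Of 8 genes typical of HEK293 cells, 7 were at 8.89 CPM or more in every library, among them *VIM* and *NEFL*, while *PAX2* stayed at 0.475 CPM or below. Their sum was 457 to 521 CPM in sh-control and 769 to 886 CPM in the libraries labelled sh-*RREB1*, mostly *VIM*. The summed level of 12 markers of blood, liver, fibroblast, endothelial, keratinocyte and heart cells was 7.75 CPM in sh-*RREB1* replicate 2, where *COL1A2* was at 3.93 CPM, and 1.08 to 2.57 CPM in the other libraries. *CD3E*, *HBB*, *KRT5* and *KRT14* had 0 reads in all 6 libraries, which allows up to 3 reads, or 0.237 CPM in the library of lowest depth. The part of both sums in the results was not tested.

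Within the cascade, 4 genes rose in the libraries labelled sh-*RREB1* and 0 fell. Calls required an adjusted p under 0.01 from edgeR together with a log2 fold change beyond 1 in either direction. The 4 genes were *MAP2K3*, *MAP2K7*, *MAPK8IP1* and *MKNK2*, with fold increases between 3.02 and 4.08. At an unadjusted p below 0.05, 4 members were higher and 4 lower, compared to 18.5% and 15.7% of all genes. DESeq2 called 4 members higher and 0 lower, compared to 5.88% and 1.13% of all genes. Of all genes tested, 2.69% were called higher and 0.69% lower. The members were chosen with earlier results of these data known, so the count of calls among them is not independent evidence. The study had picked MAPK pathway genes for display because they differed in these same libraries, so the direction of those genes is not independent evidence. At an adjusted p below 0.05 and any fold, 4 members were higher and 4 lower, compared to 10.7% and 8.7% of all genes tested. The 4 lower members were *MAP2K4*, *MAP2K6*, *MAPK8* and *MAPK14*. In the same 8 genes the groups did not overlap, which occurred in 21% of all genes for higher and 19.9% for lower values. With 3 libraries against 3, an exact permutation test (two-sided) cannot go below p = 0.1, which each of these 8 genes reached.

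**Figure D1:**
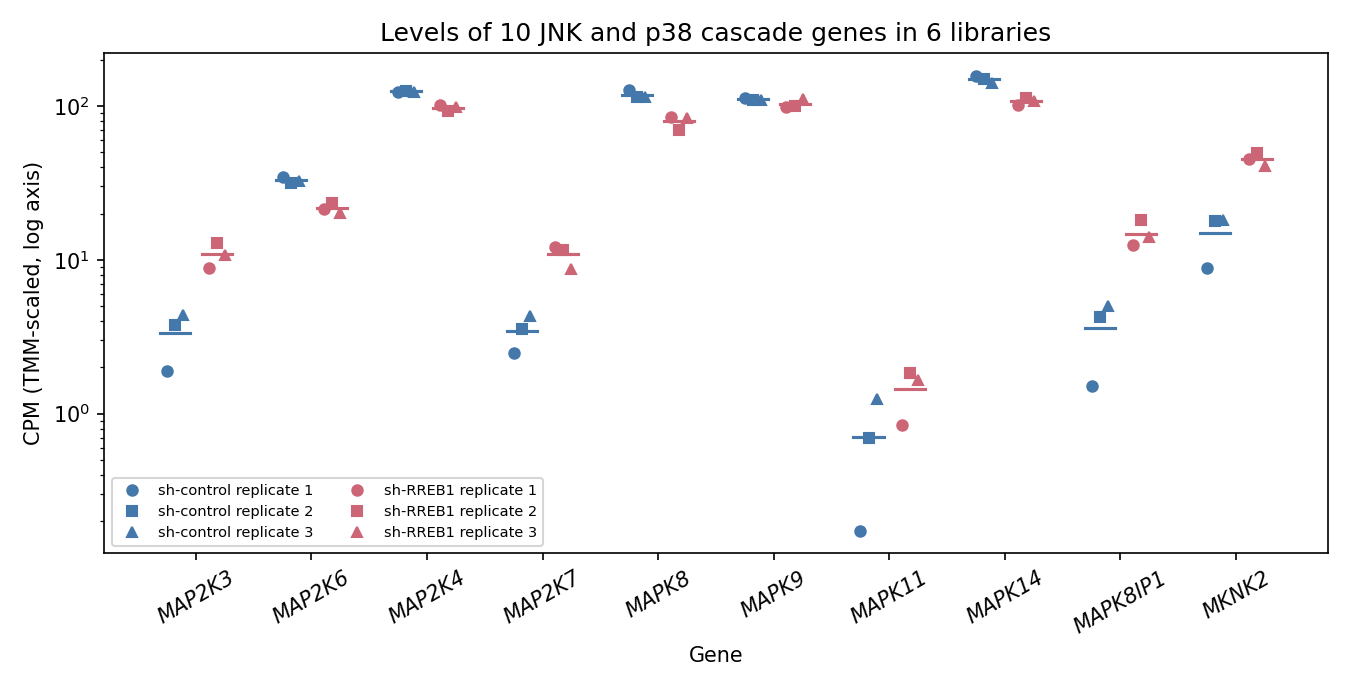
Level of each of the 10 cascade genes in the 6 libraries, in TMM-scaled CPM on a log axis, with sh-control in blue, sh-RREB1 in red, a marker shape for each replicate number and a bar at the group mean. *MAP2K3*, *MAP2K7*, *MAPK8IP1* and *MKNK2* lie higher in every sh-RREB1 library, and *MAP2K4*, *MAP2K6*, *MAPK8* and *MAPK14* lie lower.

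The starts of these genes are shown because members of both directions could be compared there. RefSeq windows (GRCh38.p14) were found for 9 of the 10 genes, with 13 windows in all, and *MAPK8IP1* had none. Each window runs from 250 to 51 bases before a transcription start. The windows below belong to genes with 1 listed start, *MAP2K7* and *MKNK2* from the genes that rose and *MAPK8* and *MAPK14* from those that were lower. Capitals mark GGGCGG or its reverse complement CCGCCC, the GC box bound by SP1.
MAP2K7 (chr19:7903627-7903826, + strand): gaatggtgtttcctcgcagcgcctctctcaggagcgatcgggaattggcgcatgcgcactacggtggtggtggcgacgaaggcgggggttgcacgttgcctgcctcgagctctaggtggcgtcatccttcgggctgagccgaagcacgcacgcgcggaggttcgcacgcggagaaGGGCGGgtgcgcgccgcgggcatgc
MKNK2 (chr19:2051295-2051494, − strand): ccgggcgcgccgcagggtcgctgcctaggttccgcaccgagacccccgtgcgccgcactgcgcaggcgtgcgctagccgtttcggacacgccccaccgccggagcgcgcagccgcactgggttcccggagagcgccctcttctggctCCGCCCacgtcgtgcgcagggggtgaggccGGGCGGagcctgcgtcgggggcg
MAPK8 (chr10:48306427-48306626, + strand): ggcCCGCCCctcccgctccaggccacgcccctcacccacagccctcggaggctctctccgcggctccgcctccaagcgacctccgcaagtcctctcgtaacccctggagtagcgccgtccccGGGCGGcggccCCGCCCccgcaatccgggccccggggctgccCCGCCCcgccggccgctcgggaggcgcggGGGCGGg
MAPK14 (chr6:36027558-36027757, + strand): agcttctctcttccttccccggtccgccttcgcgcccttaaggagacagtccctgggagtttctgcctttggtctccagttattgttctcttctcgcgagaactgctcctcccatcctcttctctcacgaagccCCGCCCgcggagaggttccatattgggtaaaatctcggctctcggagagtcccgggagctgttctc

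The GC box occurred 1 time in the *MAP2K7* window, 2 times in that of *MKNK2*, 5 times in that of *MAPK8* and 1 time in that of *MAPK14*, with both strands searched and overlapping matches counted. It was present in 9 of the members' 13 windows and in 35% of 35116 windows of all genes. The windows of all genes were not limited to genes expressed here, so the sets are unlike. An excess among the members was not tested. The letters CCCCAAAC, with which the consensus of the RREB1 element opens, occurred in 0 of the 13 windows on either strand and in 1.29% of all windows. At so low a share, 0 matches in 13 windows cannot tell the members from other genes. Bases outside the windows were not searched. The GC content of the window was 68% for *MAP2K7*, 77.5% for *MKNK2*, 81% for *MAPK8* and 57.5% for *MAPK14*, compared to a median of 57.5% over all windows. The window of highest GC content was that of *MAPK8*, whose exonic GC content, 37.6%, was the lowest among the members. A match of letters is a description and not a binding site.

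Of the MAP2Ks of the p38 branch, *MAP2K3* was called and *MAP2K6* was not. *MAP2K3* (ENSG00000034152, chromosome 17 of GRCh38 from 21284672 to 21315232) had 44, 102 and 140 reads in the 3 sh-control libraries (1.91, 3.75 and 4.36 CPM, replicates in order). Libraries labelled sh-*RREB1* held 221, 339 and 135 reads of it, which is 8.88, 12.9 and 10.7 CPM. Each of these was above every sh-control value. The mean rose from 3.34 ± 1.27 to 10.8 ± 2.04 CPM (SD, n = 3), a log2 fold change of 1.69 (SE 0.30, edgeR adjusted p = 0.00782). Corrected for GC content and length the log2 fold change was 0.94 (edgeR adjusted p = 0.00069), and *MAP2K3* was not called. *MAP2K6* (ENSG00000108984, chromosome 17 from 69414697 to 69553865) measured 34.7, 31.7 and 32.6 CPM with the control hairpin. The values were 21.4, 23.5 and 20.2 CPM under the sh-*RREB1* label. The groups did not overlap. Its log2 fold change was −0.60 (SE 0.13, edgeR adjusted p = 0.0166), which missed both thresholds.

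Of the MAP2Ks of the JNK branch, *MAP2K7* was called and *MAP2K4* was not. *MAP2K7* (ENSG00000076984, chromosome 19 from 7903843 to 7914478) had 57, 96 and 138 reads in sh-control (2.47, 3.53 and 4.29 CPM). Libraries labelled sh-*RREB1* held 304, 305 and 110 reads of it (12.2, 11.6 and 8.70 CPM), and none overlapped with sh-control. The mean rose from 3.43 ± 0.914 to 10.9 ± 1.88 CPM (SD, n = 3), a log2 fold change of 1.66 (SE 0.24, edgeR adjusted p = 0.00452), the smallest adjusted p among the members. Corrected for GC content and length the log2 fold change was 0.56 (edgeR adjusted p = 0.0354), and *MAP2K7* was not called. *MAP2K4* (ENSG00000065559, chromosome 17 from 12020829 to 12143830) measured 124, 126 and 123 CPM with the control hairpin. Under the sh-*RREB1* label it measured 101, 93.4 and 97.9 CPM. The sh-control libraries lay close together and above all the others. The log2 fold change was −0.35 (SE 0.10, edgeR adjusted p = 0.0355), or a level 21.6% lower, which missed both thresholds. Corrected for GC content and length it was −0.10 (edgeR adjusted p = 0.457).

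The kinases that these enzymes activate showed no call. *MAPK8* (JNK1, ENSG00000107643, chromosome 10 from 48306639 to 48439360) measured 126, 114 and 114 CPM with the control hairpin. All libraries labelled sh-*RREB1* lay below these, at 84.6, 70.0 and 83.9 CPM. Its log2 fold change was −0.57 (SE 0.12, edgeR adjusted p = 0.0127). *MAPK9* (JNK2, ENSG00000050748, chromosome 5 from 180233143 to 180292099) measured 113, 109 and 109 CPM with the control hairpin, next to 98.0, 99.9 and 110 CPM in those labelled sh-*RREB1*. The groups overlapped, since sh-*RREB1* replicate 3 lay above sh-control replicates 2 and 3. The log2 fold change was −0.10 (SE 0.10, edgeR adjusted p = 0.521), with a 95% interval from −0.33 to 0.13, and p = 0.3 in the exact permutation test.

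*MAPK14* (p38 alpha, ENSG00000112062, chromosome 6 from 36027782 to 36111236) was the most abundant member in sh-control by CPM, at 157, 149 and 141. Lower values of 102, 112 and 107 CPM were found in all libraries labelled sh-*RREB1*. The log2 fold change was −0.48 (SE 0.10, edgeR adjusted p = 0.0147), or a level 28.1% lower. *MAPK11* (p38 beta, ENSG00000185386, chromosome 22 from 50263713 to 50270767) had the fewest reads, 4, 19 and 40 with the control hairpin (0.173, 0.698 and 1.24 CPM). Libraries labelled sh-*RREB1* held 21, 48 and 21 (0.844, 1.83 and 1.66 CPM), so the groups overlapped. The log2 fold change was 0.96 with a standard error of 0.54 (edgeR adjusted p = 0.256). Its 95% interval ran from −0.28 to 2.19. The value moved to 1.62 without sh-control replicate 3 and 0.49 without sh-control replicate 1, with edgeR adjusted p of 0.0842 and 0.413.

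The scaffold and the substrate kinase both rose, and neither was called after correction for GC content and length (log2 fold changes of 0.76 and 0.37). *MAPK8IP1* (JIP1, ENSG00000121653, chromosome 11 from 45885651 to 45906465) had 35, 115 and 162 reads in sh-control (1.52, 4.22 and 5.04 CPM). Libraries labelled sh-*RREB1* held 309, 473 and 177 reads of it (12.4, 18.1 and 14.0 CPM), all above sh-control. The mean went from 3.59 ± 1.84 to 14.8 ± 2.91 CPM (SD, n = 3), a log2 fold change of 2.03 (SE 0.37, edgeR adjusted p = 0.00916), the largest among the members. *MKNK2* (MNK2, ENSG00000099875, chromosome 19 from 2037465 to 2051244) measured 8.80, 17.8 and 18.3 CPM with the control hairpin, next to 45.4, 49.5 and 41.0 CPM in those labelled sh-*RREB1*. Reads on it ranged from 203 to 1296 per library. Every library labelled sh-*RREB1* was above every sh-control library, with an SD of 5.34 CPM in sh-control and 4.25 CPM in the other group (n = 3). The level was 3.02-fold higher, a log2 fold change of 1.59 (SE 0.26, edgeR adjusted p = 0.00614). In sh-control replicate 1 each of the 5 members with a positive fold change, *MAPK11* included, was below both other sh-control libraries, so it was the lowest control for 5 of the 10 members. It was also the lowest control for 48.1% of 14595 genes with a mean of at least 1 CPM.

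Few reads were counted on near copies of these genes. Reads at several positions were counted on no gene, so reads shared with a near copy would be missing from both. Such a loss was not measured. The pseudogenes *MAPK8IP1P1*, *MAPK8IP1P2* and *MKNK2P1* had at most 1 read in any library, and *MAP2K4P1* had 9 to 25 reads against 1237 to 3963 on *MAP2K4*. The long noncoding genes on the opposite strand of *MAP2K7* and *MAPK8IP1* exons had at most 2 reads. The counts were stranded, and 4 to 11 reads per library lay on the strand opposite to *MAPK8IP1*, or 2.27% to 10.3% of its reads on both strands. For the other members this share was at most 2.04%.

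Levels of different genes were compared per length, as RPKM, the CPM divided by the kilobases of all annotated exons. RPKM was not corrected for GC content, in which the members differed and to which the libraries differed in response (values below). The part of GC content in the order was not tested. In sh-control the order was *MAPK14* (22.1 ± 1.20 RPKM, SD, n = 3), *MAP2K4* (21.8 ± 0.199), *MAPK9* (12.3 ± 0.255), *MAPK8* (12.2 ± 0.704), *MKNK2* (2.87 ± 1.02) and *MAP2K6* (1.98 ± 0.0904). *MAPK8IP1* (1.03 ± 0.527 RPKM), *MAP2K3* (0.884 ± 0.337), *MAP2K7* (0.667 ± 0.178) and *MAPK11* (0.262 ± 0.199) followed. Of the neighbours in this order, the libraries did not overlap between *MAP2K4* and *MAPK9*, *MAPK8* and *MKNK2*, *MAP2K6* and *MAPK8IP1*, or *MAP2K7* and *MAPK11*. The other neighbours overlapped. Within each sh-control library *MAP2K3* was above *MAP2K7*, while the order of the remaining overlapping neighbours changed between libraries. In the libraries labelled sh-*RREB1*, *MKNK2* was at 8.67 ± 0.815 RPKM beside *MAPK8* at 8.22 ± 0.855. *MAP2K6*, at 1.29, 1.41 and 1.21 RPKM, was then below *MAP2K7* (2.11 ± 0.366), *MAP2K3* (2.87 ± 0.540) and *MAPK8IP1* (4.24 ± 0.833). *MAP2K4* was at 17.1 ± 0.667 RPKM, above *MAP2K7* in every library.

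Ratios within a library compare related kinases without the scaling of libraries. *MAP2K3* stood to *MAP2K6* as 0.243, 0.521 and 0.590 in sh-control and as 1.83, 2.43 and 2.34 in the libraries labelled sh-*RREB1* (ratio of RPKM). All 3 of the latter were above all 3 of the former. The size of this ratio depends on the exonic length, which is 16660 bases for *MAP2K6* with all annotated transcripts merged and 3775 for *MAP2K3*, while the change between groups does not. *MAP2K7* stood to *MAP2K4* as 0.0221, 0.0312 and 0.0386 in sh-control and as 0.134, 0.138 and 0.0987 in the libraries labelled sh-*RREB1*. *MAPK9* stood to *MAPK8* as 0.968, 1.03 and 1.03 in sh-control and as 1.25, 1.54 and 1.42 in the libraries labelled sh-*RREB1*, again without overlap. *MAPK11* stayed at 0.0410 of *MAPK14* or less in every library, and that ratio overlapped between the groups. *MAPK14* stood to *MAPK8* as 1.81 ± 0.0550 in sh-control and 1.95 ± 0.306 (SD, n = 3) in the libraries labelled sh-*RREB1*, which overlapped too.

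**Figure D2:**
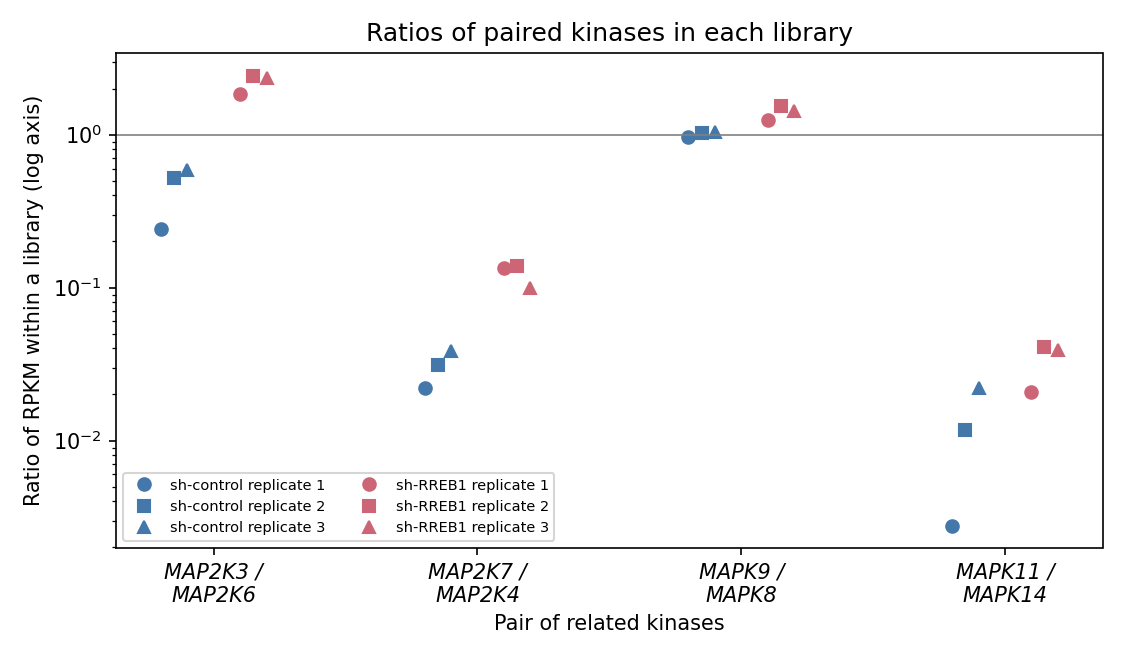
Ratio of the RPKM of paired kinases within each of the 6 libraries on a log axis, with sh-control in blue and sh-RREB1 in red and a marker shape for each replicate number. The ratio of *MAP2K3* to *MAP2K6* runs from 0.243 to 0.590 in sh-control and from 1.83 to 2.43 in sh-RREB1, and only the ratio of *MAPK11* to *MAPK14* overlaps among the 4 pairs drawn.

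The direction of the members followed the GC content of their exons. The 5 members with a positive log2 fold change had a GC content of 59.1% to 64.6%, and the 5 with a negative one of 37.6% to 43.5%, around a median of 46.8% in 14479 expressed genes. Over the tenth of expressed genes with the highest GC content the median log2 fold change was 1.13, and over the tenth with the lowest it was −0.23. The libraries also differed in this respect within groups. Over the genes of highest GC content, sh-control replicate 1 lay at a median of −1.33 from the mean of all libraries on the log2 scale, sh-control replicates 2 and 3 at −0.35 and −0.12, and the libraries labelled sh-*RREB1* at 0.50 to 0.86.

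After each library was corrected for a smooth trend on GC content and exonic length, 0 of the 10 members were called, compared to 3.02% of all genes tested. *MAP2K3* then had a log2 fold change of 0.94 (SE 0.14, edgeR adjusted p = 0.00069) and *MAPK8IP1* of 0.76 (SE 0.14, edgeR adjusted p = 0.00276), so both passed the adjusted p and missed the minimum fold change. *MAP2K7* was at 0.56 (edgeR adjusted p = 0.0354) and *MKNK2* at 0.37 (edgeR adjusted p = 0.0254). On the other side *MAP2K6* was at −0.39, *MAPK8* at −0.36 and *MAPK14* at −0.31, with edgeR adjusted p of 0.0479, 0.0116 and 0.0161. These 7 members passed an adjusted p of 0.05, which 21.9% of all genes did in that fit. *MAP2K4* was at −0.10, *MAPK9* at 0.10 and *MAPK11* at −0.11, with adjusted p of 0.457 or more, and the signs of *MAPK9* and *MAPK11* had turned. The difference in log2 fold change between *MAP2K3* and *MAP2K6* was 2.29 before and 1.33 after the correction, and that between *MAP2K7* and *MAP2K4* was 2.01 and 0.66. Between *MAPK9* and *MAPK8*, whose GC contents are 41.6% and 37.6%, it was 0.47 before and 0.46 after. The correction can also remove a true difference that follows GC content, and this was not tested.

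**Figure D3:**
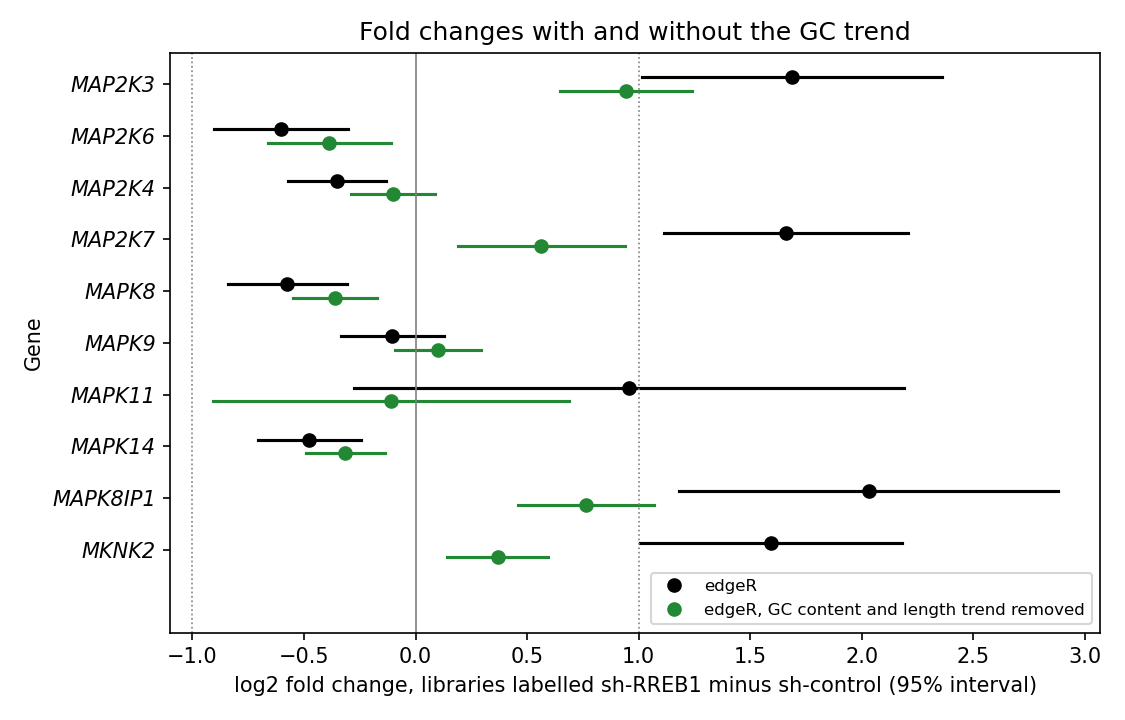
Log2 fold change of each member (libraries labelled sh-RREB1 minus sh-control) with its 95% interval, from edgeR (black) and from edgeR with the trend on GC content and length removed (green). Dotted lines mark a log2 fold change of 1 in either direction. *MAP2K3* moves from 1.69 to 0.94 and *MKNK2* from 1.59 to 0.37.

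Fits without 1 library gave fewer calls over all genes as well as among the members, except the fit without sh-control replicate 1. All 4 held without sh-control replicate 1, where 1120 genes were called, with log2 fold changes of 1.29 to 1.64. They also held with sh-control replicate 1 and sh-*RREB1* replicate 3 both left out, a choice made after the data had been seen that called 659 genes, with log2 fold changes of 1.39 to 1.71. *MAP2K7* alone was called without sh-control replicate 3, where 380 of 23617 genes were called. Without sh-control replicate 2, 0 members and 9 genes in all were called. Without sh-*RREB1* replicate 1, 2 or 3, 0 members were called, and 25, 136 and 8 genes in all. The edgeR adjusted p of the 4 genes ran up to 0.0453 in these fits. Their log2 fold changes stayed above 1 in each of these 6 fits, between 1.29 for *MKNK2* and 2.32 for *MAPK8IP1*. DESeq2 called the same 4 members, with adjusted p of 1.62e-06 or less.

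Other genes of the cascade were described from a list of 61, of which *GADD45G* missed the minimum of 10 reads and 60 were tested. This list too was chosen with earlier results of these data known. Of the 60 genes 4 were called higher and 0 lower, next to 2.69% and 0.69% of all genes. At an adjusted p below 0.05 and any fold, 14 were higher and 7 lower, next to 10.7% and 8.7% of all genes. The median log2 fold change of the 60 genes was 0.10, against 0.01 for all genes tested. Of the 33 with a positive fold change 28 had a GC content above the median of expressed genes, and of the 27 with a negative one 4 did. At an unadjusted p below 0.05, 22 were higher and 11 lower, next to 18.5% and 15.7% of all genes. DESeq2 called 10 of these genes higher and 0 lower, next to 5.88% and 1.13% of all genes.

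**Figure D4:**
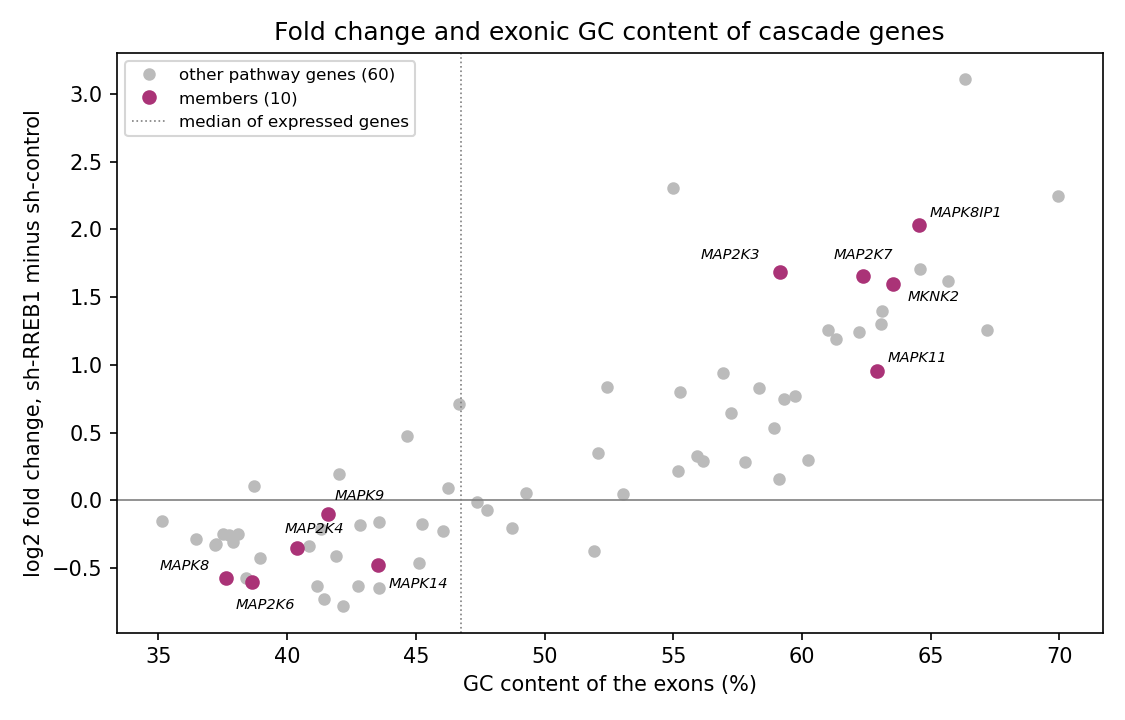
Log2 fold change (libraries labelled sh-RREB1 minus sh-control) against the GC content of the exons for the 10 members (purple) and the 60 other cascade genes tested (grey). The dotted line marks the median GC content of expressed genes, 46.8%, and all 5 members with a positive value lie to its right.

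Upstream of the MAP2Ks, 0 of 24 MAP3K and MAP4K genes were called by edgeR and 3 by DESeq2 (all genes 5.88% higher and 1.13% lower), with 7 higher and 5 lower at an unadjusted p below 0.05 (all genes 18.5% and 15.7%). *MAP3K6* had the highest log2 fold change, 1.40 (SE 0.44, edgeR adjusted p = 0.0532), and *TAOK3*, a kinase of the TAO family, the lowest, −0.78 (SE 0.15, edgeR adjusted p = 0.00968). With the GC trend removed *MAP3K6* was at 0.26 (edgeR adjusted p = 0.402) and *TAOK3* at −0.60 (edgeR adjusted p = 0.00199). Of the 3 remaining MAP kinases 0 were called by edgeR (all genes 2.69% higher and 0.69% lower). DESeq2 called 1, *MAPK12* (all genes 5.88% higher and 1.13% lower). The log2 fold change of *MAPK12* (p38 gamma) was 1.62 (SE 0.47, edgeR adjusted p = 0.0413), and that of *MAPK10* (JNK3) −0.31 (edgeR adjusted p = 0.314). With the GC trend removed *MAPK12* was at 0.21 (edgeR adjusted p = 0.459) and *MAPK10* at −0.15 (edgeR adjusted p = 0.597). *MAPK12* averaged 6.62 CPM with the control hairpin and 20.5 CPM in those labelled sh-*RREB1*, above *MAPK11* in both.

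Of 9 other scaffolds and adaptors, 0 were called by edgeR and 2 by DESeq2 (all genes 5.88% higher and 1.13% lower), with 4 higher and 3 lower at an unadjusted p below 0.05 (all genes 18.5% and 15.7%). *MAPK8IP2* (JIP2) was at a log2 fold change of 1.30 (SE 0.30, edgeR adjusted p = 0.0195), and at 0.13 with the GC trend removed (edgeR adjusted p = 0.582). *SPAG9* (JIP4), the most abundant scaffold of the list, measured 514, 488 and 473 CPM with the control hairpin, next to 301, 294 and 296 CPM in those labelled sh-*RREB1*. Every library of one group was above every library of the other, and the log2 fold change was −0.73 (SE 0.09, edgeR adjusted p = 0.00334). With the GC trend removed it was −0.53 (edgeR adjusted p = 0.000849). Its fold change was below the minimum, so it was not called in either fit.

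Downstream of p38, 1 of 6 further substrate kinases was called higher and 0 lower, next to 2.69% and 0.69% of all genes. *RPS6KA4* (MSK2), which phosphorylates histone H3 and CREB, measured 2.91, 6.61 and 8.06 CPM with the control hairpin, next to 17.8, 20.9 and 19.1 CPM in those labelled sh-*RREB1*. It rose with a log2 fold change of 1.71 (SE 0.32, edgeR adjusted p = 0.0095), which was 0.42 with the GC trend removed (edgeR adjusted p = 0.0222). Its relative *RPS6KA5* (MSK1) was at −0.57 (edgeR adjusted p = 0.0654), and at −0.39 with the GC trend removed (edgeR adjusted p = 0.0205). Of the 10 transcription factor substrates 2 were called higher and 0 lower (all genes 2.69% and 0.69%). The called genes were *JUN* at 2.30 and *JUND* at 2.25 (edgeR adjusted p of 0.000194 and 0.00205), and *ATF2* was lowest at −0.32 (edgeR adjusted p = 0.113). With the GC trend removed *JUN* was at 1.91, *JUND* at 0.29 and *ATF2* at −0.09, and *JUN* was called.

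Of the 8 phosphatase and *GADD45* genes tested, 1 was called higher and 0 lower, next to 2.69% and 0.69% of all genes. *DUSP8*, a phosphatase of JNK and p38, had 2, 6 and 7 reads with the control hairpin and 44, 47 and 14 in those labelled sh-*RREB1*. The log2 fold change reached 3.11 (SE 0.39, edgeR adjusted p = 0.00322), and 1.66 with the GC trend removed (edgeR adjusted p = 0.00595), where it was also called. *DUSP1* was at 0.80 (SE 0.19, edgeR adjusted p = 0.0216), and at 0.42 with the GC trend removed (edgeR adjusted p = 0.0241). *PPM1D*, a p53-induced phosphatase that acts on p38, was at −0.64 (SE 0.11, edgeR adjusted p = 0.00835), short of the minimum fold change, and at −0.47 with the GC trend removed (edgeR adjusted p = 0.00308).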

How the data were processed

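Total RNA of HEK293T cells was sequenced in 6 libraries made with a strand-specific total RNA kit. The authors aligned reads with STAR to hg38 and the Gencode annotation and deposited raw counts of reads per gene, without normalization, for each library and in a merged table. Members were matched by symbol in the merged table, whose counts equalled those of the library tables for all 24635 shared identifiers, and sense-strand counts of the library tables were analysed. Lines for reads on no gene (8853232 to 13201426 per library) and 45 pseudoautosomal copies were left out. For each symbol the identifier with most reads was kept, which left 56811, of which 23617 had at least 10 reads in total, a filter that follows the study's methods.

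The quasi-likelihood test of edgeR 4.0.16 was run in R 4.3.3, with TMM scaling and condition as the only term, with Benjamini-Hochberg adjustment over all genes tested. The standard error is the log2 fold change divided by the square root of F. DESeq2 1.42.0, the tool of the study, was an alternative. Gencode exons on GRCh38 gave GC content and length for 98.7% of genes tested, and all 10 members. Trends on GC content and length were natural splines of 5 degrees of freedom per library. Fits were run on simulated data with the same dispersion for every gene and changes set without regard to GC content. Such data cannot show how the fits treat changes that follow GC content. The closest pair of libraries, sh-control replicates 2 and 3, differed by more than sampling noise (chi-square over degrees of freedom 4.70), so each library was counted once. Counting limits cover counting error only.

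The members and lists were chosen with earlier results of these data known. Named genes are the 10 members, *RREB1*, the called genes of the cascade list, and pseudogenes and overlapping genes. The highest and lowest of each sublist with a mean of at least 1 CPM are named too. Genes with the pattern closest to that of the member that changed most were added. *ACTB* is named because the study scaled *RREB1* mRNA to it. Alternatives were DESeq2, other scalings and filters, both strands together, the merged table, every identifier kept, other thresholds, the replicate number as a block, the GC and length trend, and each library left out.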

Additional observations from a re-analysis of the deposited data

How the results depend on the processing

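The edgeR test called 798 genes (79.6% higher), 4 members and 4 other cascade genes. DESeq2 called 1656 genes and 10 cascade genes, a minimum of 1 read in total 1829 and 11, an adjusted p of 0.05 with the minimum fold change 2053 and 9, and an adjusted p of 0.05 at any fold 4575 (55.1% higher), 21 and 8 members. The first 3 of these called 4 members each. With the GC and length trend removed 714 genes were called, 60.5% of them higher, with 0 members and 2 cascade genes, and the log2 fold change of *MAPK9* was 0.10 and of *MAPK11* −0.11. With the replicate block and that trend removed together, 883 genes were called, 59.3% higher, with 0 members and 2 cascade genes, and *MAPK9* was at 0.10. Leaving out 1 library gave 8 to 1120 genes, 0 to 4 members and 1 to 5 cascade genes. The largest losses came without sh-*RREB1* replicate 3 (8 genes), sh-control replicate 2 (9) and sh-*RREB1* replicate 1 (25). Reads of both strands together called 3 members, since *MAPK8IP1* had an edgeR adjusted p of 0.0118. The other scalings, filterByExpr, the merged table and every identifier kept called 4. The causes were not tested, apart from looser thresholds, which must call more.

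The replicate number as a block called 1707 genes, 4 members and 11 cascade genes, and *MAPK11* was then at 1.15 (SE 0.36, edgeR adjusted p = 0.0371) and not called. Deviations of same-numbered libraries from their group means correlated at 0.50, 0.43 and −0.27 across genes for numbers 1, 2 and 3, so the numbers were not taken to pair the libraries, and not every library correlated best with its own number. *RREB1* stayed between −0.37 and −0.06 and was not called in any of the 19 alternatives. Its smallest adjusted p among them was 0.011 (edgeR, replicate block with the GC and length trend removed). Over all genes, the median stayed within 0.1 of 0 (log2) under each scaling. *MAPK11* rested on 4 to 48 reads per library, and its log2 fold change was 0.49 to 1.62 with 1 library left out.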

Other observations

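The patterns closest to that of *MAPK8IP1*, the member with the largest fold change, were those of *IMPDH1*, *CKB* and *DEAF1* among 14595 genes with a mean of at least 1 CPM. The root mean square difference of log2 CPM, each gene centred on its own mean over the 6 libraries, was 0.05, 0.06 and 0.09. *IMPDH1*, an enzyme of guanine nucleotide synthesis, had a log2 fold change of 1.99, *CKB*, the brain-type creatine kinase, of 2.08, and *DEAF1*, a transcription factor, of 2.07, with edgeR adjusted p of 0.00871, 0.00749 and 0.00873. These genes were picked for their likeness over the same 6 libraries, so similar fold changes follow from the selection. Their exonic GC contents were 62.1%, 69.9% and 57.0%, next to 64.6% for *MAPK8IP1*.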
